A study of Mus musculus with 20 samples.

Results

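The 10 genes described here lie around Mdm2 on mouse chromosome 10, within 2.02 Mb, and were followed through all 20 libraries of a breast cancer cell series. They are Yeats4, Cpm, Mdm2, Slc35e3, Nup107, Rap1b, 4933411E08Rik, Mdm1, Dyrk2 and Cand1. They were picked because most are far higher in Py2T LT cells than in the mesenchymal clones, so the levels in that contrast are a description of the choice, carry no test and support nothing. Levels were given as RPKM (reads scaled to library size and transcript length) in the libraries of the clones and Py2T LT and as CPM (reads scaled to library size alone) in the hairpin libraries. All 10 genes were found among the 19311 genes of the RPKM libraries and the 24454 genes of the CPM libraries. In the RPKM libraries 10 of 10 passed the filter on low values, and in the CPM libraries 9 of 10 did, 4933411E08Rik having no read in any of the 12.

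The cells come from mammary tumours of MMTV-PyMT mice, in which the mammary tumour virus promoter drives polyoma middle T antigen. M1, M2 and M3 are stable mesenchymal clones, each a single clone, and Py2T LT are Py2T cells grown over more than 10 days with TGF-beta 1 at 2 ng/ml. Whether the clones also grew with TGF-beta 1 is not given in the labels, so clone identity and exposure cannot be told apart. Clone M3 carried shTet2, shMbd3 or shControl hairpins, each with 2 µM CI994 for 72 hours or without it, and every one of the 10 groups had 2 libraries of total RNA, from 2 independent experiments by the extraction protocol. CI994 is an inhibitor of class I histone deacetylases, Tet2 oxidises methylated cytosine in DNA, and the protein of Mbd3 belongs to NuRD, a deacetylase complex.

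Mdm2 encodes the ubiquitin ligase that marks the tumour suppressor p53 for degradation, and it is itself a transcriptional target of p53, so that the pair forms a feedback loop. Mdm1 and Mdm2 were named after double minute chromosomes, small extra chromosomes of a transformed mouse fibroblast line. The surrounding genes have unrelated functions, and neighbours of this kind are read together here because they share a position. DNA copy number was not measured in these libraries.

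Coordinates are those of GRCm38. Yeats4 (gene 64050, chromosome 10, 117215141 to 117224507, minus strand) encodes a reader of acylated histones that belongs to the TIP60 and SRCAP chromatin complexes. Cpm (gene 70574, chromosome 10, 117629500 to 117687352, plus strand) encodes carboxypeptidase M, a cell surface enzyme that trims basic residues from peptides. Mdm2 (gene 17246, chromosome 10, 117688875 to 117710758, minus strand) begins 1.52 kb beyond the end of Cpm. Slc35e3 (gene 215436, chromosome 10, 117733678 to 117746358, minus strand) belongs by sequence to a family of nucleotide sugar transporters. Nup107 (gene 103468, chromosome 10, 117750621 to 117792736, minus strand) encodes a scaffold protein of the nuclear pore. Rap1b (gene 215449, chromosome 10, 117814597 to 117845974, minus strand) encodes a small GTPase that acts on integrins and cell junctions. The annotation lists 4933411E08Rik (gene 71067, chromosome 10, 117925459 to 117948307, plus strand) as a long non-coding RNA. Mdm1 (gene 17245, chromosome 10, 118141540 to 118168999, plus strand) encodes a microtubule-binding protein of centrioles in human cells. Dyrk2 (gene 69181, chromosome 10, 118855602 to 118889245, minus strand) encodes a kinase that phosphorylates p53 in human cells. Cand1 (gene 71902, chromosome 10, 119198812 to 119240055, minus strand) encodes the factor that exchanges substrate adaptors on cullin ubiquitin ligases. The 10 genes span 2.02 Mb, and the 8 from Cpm to Dyrk2 span 1.26 Mb. Mdm1 overlaps the antisense gene Gm47958, and Cpm overlaps the small nuclear RNA gene Gm25709 on the other strand. Dyrk2 overlaps 4932442E05Rik on the other strand and Gm10744 on its own strand. The library kit keeps strand, but whether the counting used it is not given in the sources used here. Reads of Mdm1 and Gm47958, and of the other overlapping genes, may thus be mixed. Strand alone would not part Dyrk2 from Gm10744.

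The promoter windows of Mdm2 and of the genes at each end of the stretch from Cpm to Dyrk2 are shown because the run of low values in the clones begins and ends with them. Each holds 300 bases, 250 before and 50 after the start in RefSeq, on GRCm38.p6, read along the gene's own strand. Capitals mark matches on either strand to the motifs searched, which were the GC box GGGCGG, the CAAT box spelled CCAAT, the E-box spelled CACGTG, the cyclic AMP response core spelled TGACG, the TATA box spelled TATAAA and the p53 consensus half-site.
Cpm: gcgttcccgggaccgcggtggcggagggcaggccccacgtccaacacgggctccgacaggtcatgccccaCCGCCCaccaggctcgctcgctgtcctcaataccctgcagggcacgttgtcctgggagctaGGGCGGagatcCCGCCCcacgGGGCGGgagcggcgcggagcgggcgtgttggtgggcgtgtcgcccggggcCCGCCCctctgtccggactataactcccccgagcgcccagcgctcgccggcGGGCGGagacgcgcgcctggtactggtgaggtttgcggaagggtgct
Mdm2: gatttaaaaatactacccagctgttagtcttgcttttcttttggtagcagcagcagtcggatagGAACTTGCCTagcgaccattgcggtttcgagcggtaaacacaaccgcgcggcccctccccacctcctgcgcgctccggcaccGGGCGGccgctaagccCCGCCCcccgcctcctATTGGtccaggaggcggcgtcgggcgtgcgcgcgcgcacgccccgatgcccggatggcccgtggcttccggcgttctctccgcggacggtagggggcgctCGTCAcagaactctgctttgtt
Dyrk2: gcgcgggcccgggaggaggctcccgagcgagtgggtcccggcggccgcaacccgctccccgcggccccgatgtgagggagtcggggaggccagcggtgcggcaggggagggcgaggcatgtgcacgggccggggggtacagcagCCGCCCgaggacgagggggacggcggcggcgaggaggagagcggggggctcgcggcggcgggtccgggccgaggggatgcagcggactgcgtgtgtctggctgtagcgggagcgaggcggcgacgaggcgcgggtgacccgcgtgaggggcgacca
The Cpm window (chr10:117629250-117629549, plus strand) held 73.7% G and C and 6 matches to GGGCGG. The Mdm2 window (chr10:117710709-117711008, minus strand) held 64.7% G and C, 2 matches to GGGCGG, 1 match to CCAAT, and 1 match each to the cyclic AMP response core and the p53 consensus half-site. The Dyrk2 window (chr10:118868854-118869153, minus strand) held 79.0% G and C and 1 match to GGGCGG, and it lies inside the span that the annotation gives for the gene. GGGCGG was found in 9 of the 10 windows, against 35.7% of 32851 RefSeq promoter windows of the same length. CCAAT was found in 3 of 10 windows (37.4% of all), TGACG in 3 (20.8% of all), and CACGTG in 1, that of Slc35e3 (7.15% of all). TATAAA was found in the 4933411E08Rik window (13.6% of all), and the p53 consensus half-site in the Mdm2 and 4933411E08Rik windows (8.36% of all). The motifs are short, and matches describe letters only.

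The 12 CPM libraries held 16086082 to 24977595 reads, so that 3 reads were worth 0.12 to 0.186 CPM. The RPKM libraries carry no totals, but the steps between their low values put their depths at 0.865 to 1.06 times that of Py2T LT replicate 1. Vim, a mesenchymal filament gene, averaged 440.0 ± 87.2 RPKM in the clones (SD, n = 6) and 1388 ± 12.7 RPKM in Py2T LT (SD, n = 2), and the epithelial keratin gene Krt8 averaged 400.2 ± 48.0 RPKM in the clones and 362 ± 7.71 RPKM in Py2T LT. Cdh1, the E-cadherin gene, was low in both, at 2.64 ± 2.03 RPKM in the clones and 1.94 ± 0.540 RPKM in Py2T LT. Vim, Fn1 and Zeb1 were lower in the clones and Cdh2 was higher, so the mesenchymal list summed to 961 to 1494 RPKM in the clones and 2879 to 2988 RPKM in Py2T LT. The leukocyte list summed to 1.09 to 2.99 RPKM in the clones, nearly all of it Cd68, and 1.59 to 1.76 RPKM in Py2T LT. The endothelial list summed to 0.0495 to 0.147 RPKM in the clones and 0.965 to 1.44 RPKM in Py2T LT, nearly all of it Cdh5. The part of these markers in the members' levels was not tested. Tet2 measured 8.41 and 7.97 CPM in shTet2 and 15.2 and 13.9 CPM in shControl. For Mbd3 the shMbd3 libraries had 22.1 and 27.7 CPM, against 5.40 and 66.5 CPM in shControl, so the library labelled shControl replicate 1 goes against its label for that gene. The same library stood apart from its partner along gene GC content: the median log2 gap to replicate 2 changed by -1.75 between the lowest and the highest GC decile, against -0.39 to -0.0102 in the other 5 groups. Member tests in the hairpin libraries are therefore given with and without that library where leaving it out changed a call, and for every member that passed where shControl without CI994 is compared.

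All 9 genes with a level above 0 in the clones were lower in each of the 6 clone libraries than in either Py2T LT library, and 4933411E08Rik was listed at 0 in the 6 clone libraries. Over all 11717 tested genes, 29.2% had all clone libraries below both Py2T LT libraries, and nothing is read from the members' count because they were picked on it. In bulk RNA, fewer cells of a type and less RNA per cell cannot be told apart. Mdm2 measured 45.1 and 36.4 RPKM in M1, 54.2 and 51.8 RPKM in M2, 48.8 and 48.9 RPKM in M3, and 669.6 and 664 RPKM in Py2T LT. The clone libraries lay within a narrow band and the groups did not overlap. Its means were 47.5 ± 6.24 RPKM in the clones (SD, n = 6) and 667 ± 4.15 RPKM in Py2T LT (SD, n = 2), which is 7.13% of the Py2T LT mean. Dyrk2, the other gene here with a role at p53, measured 7.01 and 11.1 RPKM in M1, 9.78 and 10.5 RPKM in M2, 12.8 and 13.3 RPKM in M3, and 105 and 102 RPKM in Py2T LT. M1 replicate 1 was the lowest of the clone libraries. Its means were 10.7 ± 2.27 RPKM in the clones (SD, n = 6) and 104 ± 1.76 RPKM in Py2T LT (SD, n = 2), or 10.4% of the Py2T LT mean.

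Among the genes of the nucleus, Nup107 measured 26.4 and 26.8 RPKM in M1, 25.4 and 25.8 RPKM in M2, 35.4 and 31.9 RPKM in M3, and 562 and 548 RPKM in Py2T LT. M3 held the highest values of the clones. Its means were 28.6 ± 4.10 RPKM in the clones (SD, n = 6) and 555 ± 10.2 RPKM in Py2T LT (SD, n = 2), or 5.16% of the Py2T LT mean. Yeats4 measured 34.8 and 24.3 RPKM in M1, 25.4 and 26.9 RPKM in M2, 34.2 and 32.6 RPKM in M3, and 106 and 95.4 RPKM in Py2T LT. Its clone values were 29.5% of the Py2T LT mean, and M1 replicate 1 was as high as the M3 libraries.

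Rap1b was the most abundant of the 10 per length in every library. It measured 127 and 118 RPKM in M1, 110.4 and 117 RPKM in M2, 170.4 and 139.7 RPKM in M3, and 1595 and 1718 RPKM in Py2T LT. By RPKM it ranked between 221 and 488 in the clone libraries and 3 and 4 in the Py2T LT libraries. Its means were 130.4 ± 22.1 RPKM in the clones (SD, n = 6) and 1657 ± 86.8 RPKM in Py2T LT (SD, n = 2), or 7.87% of the Py2T LT mean. Cpm, the surface peptidase, measured 0 and 0.0388 RPKM in M1, 0.0120 and 0.0933 RPKM in M2, 0.0106 and 0.0856 RPKM in M3, and 14.9 and 16.5 RPKM in Py2T LT. The clone values are close to 0, at 0.255% of the Py2T LT mean, so the log2 difference of -4.92 depends on the pseudocount and ran from -6.88 to -4.02 with pseudocounts of 0.1 and 1. Slc35e3 measured 5.65 and 5.77 RPKM in M1, 5.55 and 5.08 RPKM in M2, 8.55 and 7.18 RPKM in M3, and 110.5 and 116 RPKM in Py2T LT. M3 was again the highest clone, and the clone mean was 5.56% of the Py2T LT mean.

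The centriole gene Mdm1 measured 10.8 and 10.7 RPKM in M1, 11.9 and 12.1 RPKM in M2, 17.7 and 17.5 RPKM in M3, and 84.2 and 104 RPKM in Py2T LT. M3 stood above M1 and M2, and the clone mean was 14.3% of the Py2T LT mean. The cullin adaptor exchanger Cand1 measured 28.9 and 34.1 RPKM in M1, 35.3 and 36.1 RPKM in M2, 43.0 and 41.8 RPKM in M3, and 124 and 122 RPKM in Py2T LT. The clone mean was 29.6% of the Py2T LT mean. The non-coding RNA 4933411E08Rik was listed at 0 in all 6 clone libraries and measured 24.7 and 24.0 RPKM in Py2T LT, and no fold is given for it.

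**Figure D1:**
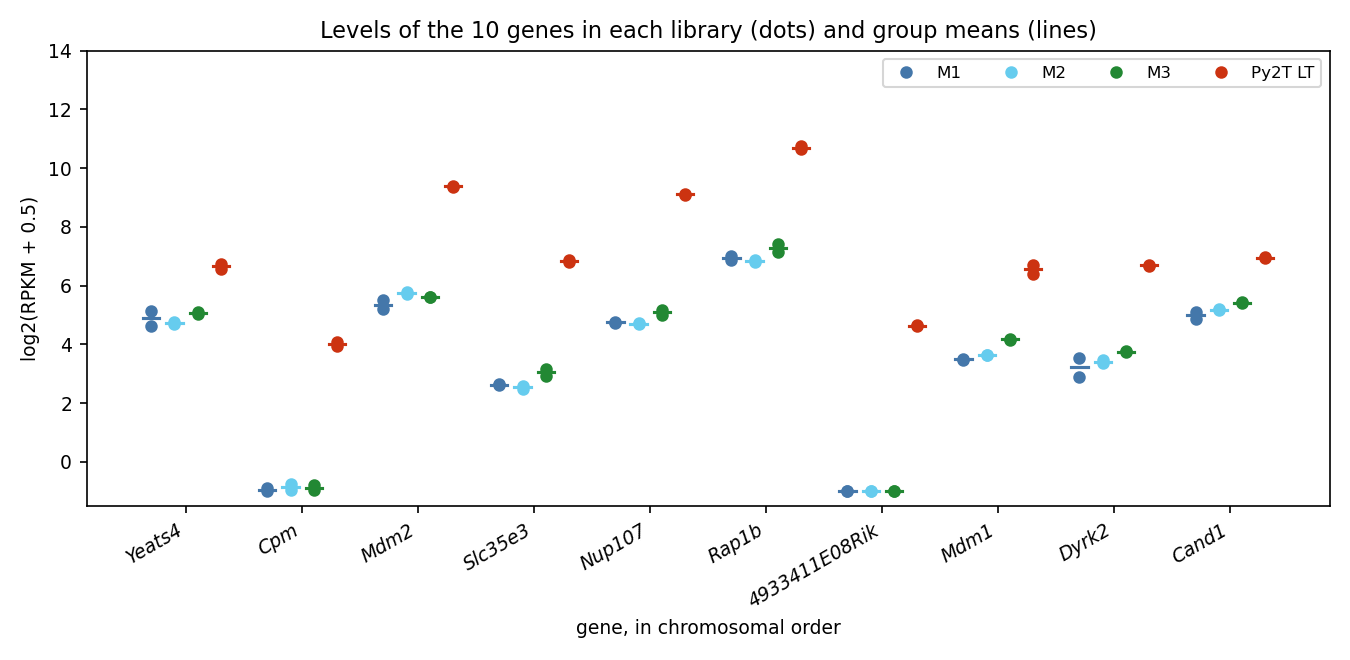
Level of each of the 10 genes on the log2(RPKM + 0.5) scale in every library of M1, M2, M3 and Py2T LT, in chromosomal order; each dot is 1 library and each line the mean of a group's 2 libraries. For every gene the 6 clone libraries lie below both Py2T LT libraries, with Mdm2 at 36.4 to 54.2 RPKM in the clones and 664 and 669.6 RPKM in Py2T LT.

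On the log2(RPKM + 0.5) scale the differences, clones minus Py2T LT, differed along the stretch. They were -1.77 for Yeats4, -4.92 for Cpm, -3.83 for Mdm2 and -4.10 for Slc35e3. The lowest value of a gene well above 0 in the clones was -4.28, for Nup107. The differences were -3.70 for Rap1b, -2.80 for Mdm1, -3.26 for Dyrk2 and -1.77 for Cand1, so the outermost genes on both sides had the smallest differences. None is given for 4933411E08Rik, which was listed at 0 in the clones. At or below -2 were 8 of the 10 members, against 3.47% of all tested genes, a count that the choice of members fixes. Yeats4 and Cand1 were the members just outside that value, and Mdm1 was the one just inside it.

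All 3 clones showed the low levels. Mdm2 differed from Py2T LT by -4.07 in M1, -3.65 in M2 and -3.76 in M3, and Nup107 by -4.40, -4.42 and -4.02. The median of the 10 members, 4933411E08Rik at its fitted value among them, was -3.93 in M1, -3.76 in M2 and -3.59 in M3. Summed over the 10 genes, the RPKM share of a library was 0.0747% to 0.109% in the clones and 0.929% and 0.986% in Py2T LT. The ratio of Mdm2 to Rap1b, per length, ran from 0.286 to 0.491 in the clone libraries and was 0.42 and 0.386 in Py2T LT, so the range in the clones enclosed both Py2T LT values. That of Nup107 to Rap1b ran from 0.207 to 0.23 in the clones and was 0.352 and 0.319 in Py2T LT, with no overlap. For Slc35e3 to Mdm2 it ran from 0.0981 to 0.175 in the clones and was 0.165 and 0.175 in Py2T LT. The ratio of Cand1 to Mdm2 ran from 0.641 to 0.937 in the clones and was 0.186 and 0.185 in Py2T LT, with no overlap. These ratios are made from the levels on which the members were picked, so nothing is read from their overlap or lack of it.

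Most tested genes around the members did not share differences of that size. Cpsf6, a subunit of the RNA cleavage machinery, lies between Yeats4 and Cpm and was the single tested gene between members that is not one of them. It ranged from 23.8 to 32.0 RPKM in the clones and from 36.2 to 42.7 RPKM in Py2T LT, a log2 difference of -0.58. Another 8 genes between members, among them Ifng, Il22, Lyz1 and Lyz2, reached at most 0.161 RPKM in any library and were not tested. On the Yeats4 side, the nearest tested genes were Frs2 at 0.11 and Cct2 at -0.59. On the Cand1 side they were Helb at -0.19 and Tmbim4 at -0.44. Over the 31 tested neighbours within 5 Mb the median was -0.44, and 2 of them, or 6.45%, were at or below -2. These were Gm15910 at -3.23 and Tafa2 at -2.21, both low in every library. Their means were 0.0130 and 0.170 RPKM in the clones and 4.28 and 2.56 RPKM in Py2T LT. With at most 0.0555 and 0.292 RPKM in any clone library, both reached the filter through Py2T LT alone, so they could only be lower. The other 529 tested genes of chromosome 10 had a median of -0.40, with their 5th and 95th percentiles at -1.73 and 1.12, and the median over all tested genes was 0.00.

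**Figure D2:**
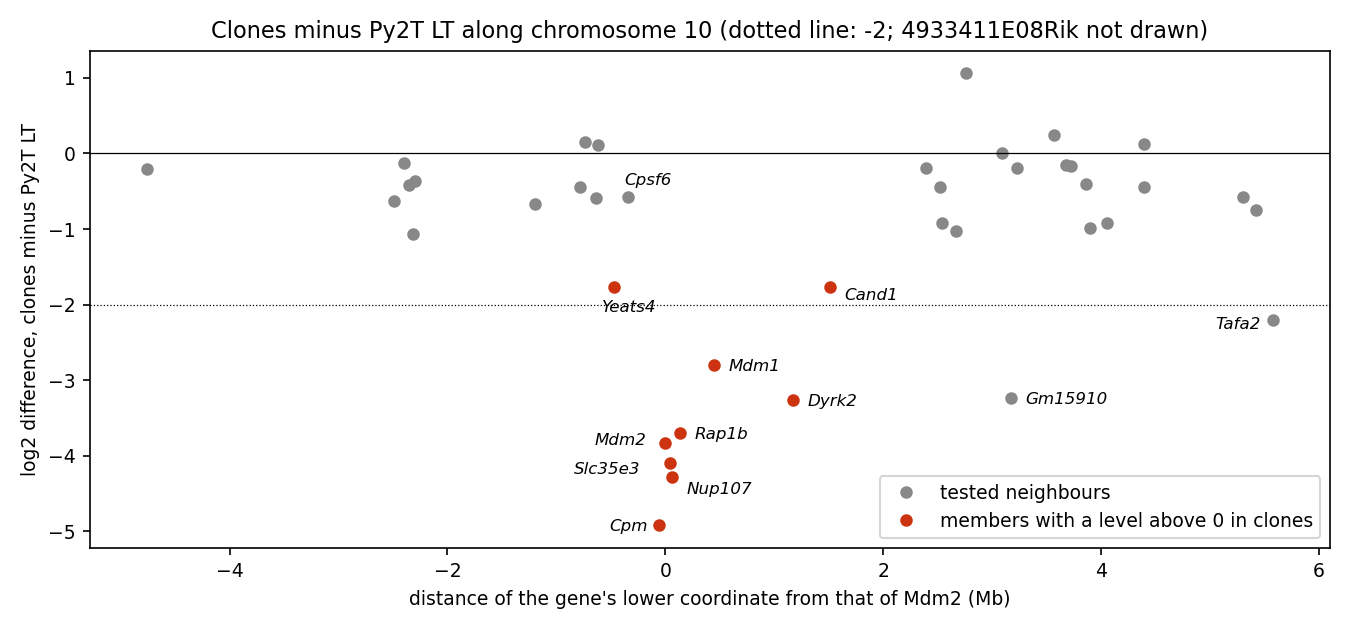
Log2 difference, clones minus Py2T LT, of each tested gene by its distance in Mb from Mdm2 on chromosome 10; red points are members, grey points the 31 neighbours within 5 Mb, and the dotted line marks -2. The members from Cpm to Dyrk2 that are drawn lie between -4.92 and -2.80, 4933411E08Rik is left out because it was listed at 0 in the clones, and Cpsf6 lies at -0.58. Gm15910 and Tafa2 are the grey points below the line.

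Chromosome 10 as a whole was also lower in the clones, by a much smaller amount. With the members left out, its 560 tested genes had a median log2 difference of -0.41, the next to lowest of the 20 chromosomes after chromosome 14 at -0.55, and chromosome 17 was highest at 0.43. By clone, the chromosome 10 median was -0.50 in M1, -0.56 in M2 and -0.17 in M3. The 31 neighbours had medians of -0.69 in M1, -0.52 in M2 and -0.16 in M3, so that M3 lay closest to Py2T LT in both sets. No test was made of these medians, because genes of a chromosome are not independent samples.

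**Figure D3:**
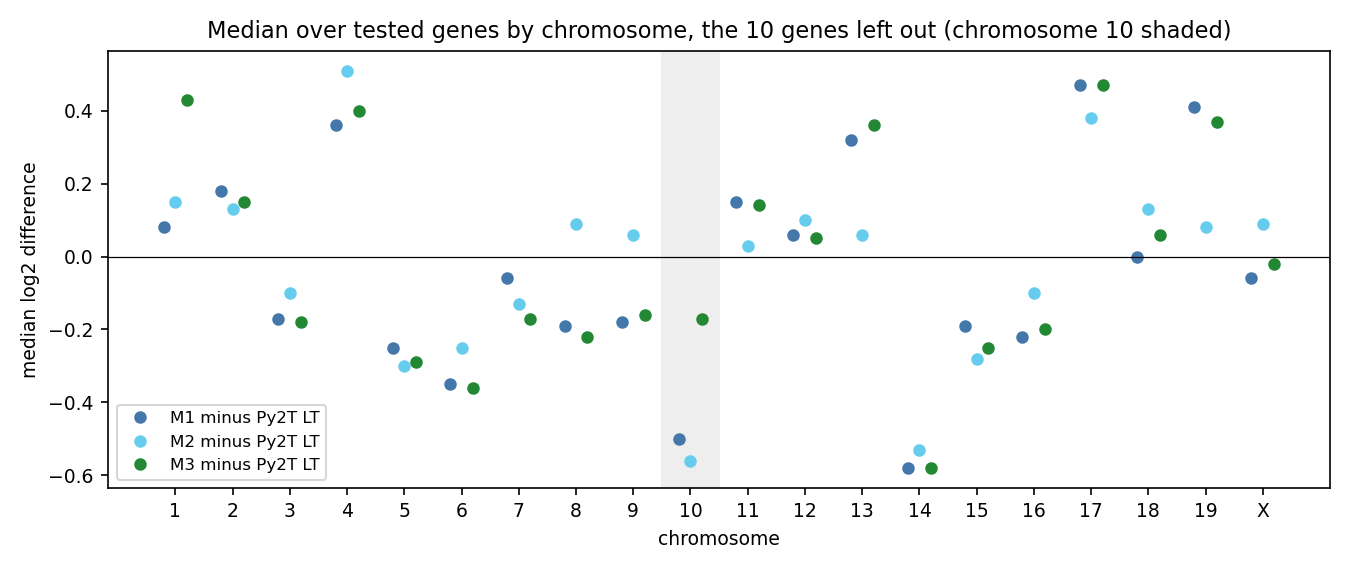
Median log2 difference from Py2T LT over the tested genes of each chromosome, the 10 members left out, with 1 point for each clone. On chromosome 10 (shaded) M3 lies at -0.17, above M1 at -0.50 and M2 at -0.56.

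The clones could be compared with each other, since the members were not picked on those differences. Here and below, whether libraries of the groups compared overlap is given to describe levels. The share of all tested genes without overlap was not counted for these comparisons, so nothing is read from it. Mdm1 was highest in M3, at 17.7 and 17.5 RPKM, against 11.9 and 12.1 RPKM in M2 and 10.8 and 10.7 RPKM in M1, with no overlap between M3 and the others. Mdm2 was lowest in M1, while M2 and M3 lay close together. In limma's moderated F test over the 3 clones, 6 members passed at an adjusted p below 0.05. Cpm and 4933411E08Rik reached the filter through Py2T LT alone, with at most 0.0933 RPKM in any clone library, so 8 members could differ among the clones. The count was thus 6 of 8, against 25.7% of all tested genes and 26.2% of the 11297 that reached 1 RPKM in at least 2 clone libraries. They were Mdm1 (adjusted p = 0.00596), Slc35e3 (0.0186), Nup107 (0.0197), Cand1 (0.0324), Rap1b (0.0341) and Mdm2 (0.0377). Yeats4 and Dyrk2 did not pass. Mdm1 passed without any 1 library, while Slc35e3 and Nup107 were lost without any 1 of 3 libraries, Rap1b without 5, and Cand1 and Mdm2 without 6, at adjusted p = 0.0603 to 0.218. With no filter on low values 3 members passed, and with only the clones in the fit 2 did, against 19.9% of all genes tested in that fit. With no scaling factor Mdm2 and Rap1b did not pass (adjusted p = 0.0763 and 0.0524), and with the GC trend removed Mdm2 did not (0.0556).

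Between M2 and M1, Mdm2 rose, with 54.2 and 51.8 RPKM in M2 and 45.1 and 36.4 RPKM in M1 (log2 0.41 ± 0.10, adjusted p = 0.0226, limma; errors after ± of log2 differences are standard errors). It was the 1 member of the 8 that passed, against 22.9% of all tested genes (11.1% higher) and 23.3% of those that reached the filter in the clones, and the other 7 lay between -0.12 and 0.22. Without either M2 library it did not pass (adjusted p = 0.15 and 0.111), nor with only these groups in the fit (0.0844). Between M3 and M1, Mdm1 rose by 0.73 ± 0.11 (adjusted p = 0.0115) on the log2 scale, and Cand1, with 43.0 and 41.8 RPKM in M3 and 28.9 and 34.1 RPKM in M1, by 0.47 ± 0.11 (adjusted p = 0.0449). These were 2 of the 8 members, against 4.92% of all tested genes (3.2% higher) and 5.03% of those that reached the filter in the clones, and the other 6 lay between 0.24 and 0.58. Without 1 or the other M3 library, Mdm1 gave 0.72 and 0.74 (adjusted p = 0.102 and 0.0794). Cand1 did not pass without any 1 of 7 of the 8 libraries, M1 replicate 2 excepted, at 0.33 to 0.50 and adjusted p = 0.0845 to 0.249, and was also lost under 6 other settings (0.0529 to 0.19).

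Between M3 and M2, 4 of the 8 members rose, against 20.2% of all tested genes in either direction and 10.6% higher, or 20.6% and 10.8% of those that reached the filter in the clones. Mdm1 rose by 0.54 ± 0.11 (adjusted p = 0.0126). Slc35e3, with 8.55 and 7.18 RPKM in M3 and 5.55 and 5.08 RPKM in M2, rose by 0.53 ± 0.11 (adjusted p = 0.0137). The M3 values of both genes lay above the M2 values without overlap. Rap1b, with 170.4 and 139.7 RPKM in M3 and 110.4 and 117 RPKM in M2, rose by 0.46 ± 0.11 (adjusted p = 0.0237). Nup107, with 35.4 and 31.9 RPKM in M3 and 25.4 and 25.8 RPKM in M2, rose by 0.40 ± 0.09 (adjusted p = 0.0165). All 4 calls were lost without M2 replicate 1, M2 replicate 2 or M3 replicate 1, at adjusted p = 0.069 to 0.187 with log2 values of 0.30 to 0.58. Mdm1 was also lost without M3 replicate 2 (0.55, adjusted p = 0.0696) and Rap1b without Py2T LT replicate 2 (0.44, adjusted p = 0.0501). Without M3 replicate 1, Rap1b gave 0.30.

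The rest of chromosome 10 moved with M3 in the same way. In M3 minus M1 the 8 members had a median of 0.42, the 31 neighbours 0.51, the other 529 tested genes of the chromosome 0.32 and all tested genes 0.00. In M3 minus M2 the medians were 0.38, 0.32, 0.36 and 0.01. Above 0 were 89.2% and 89% of the other chromosome 10 genes in these comparisons, against 50.5% and 51.8% of all tested genes. Both comparisons share the M3 libraries. Chromosome 10 had the highest median of the 20 chromosomes in both, at 0.33 and 0.36. The part of this shift in the members' differences was not tested.

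**Figure D4:**
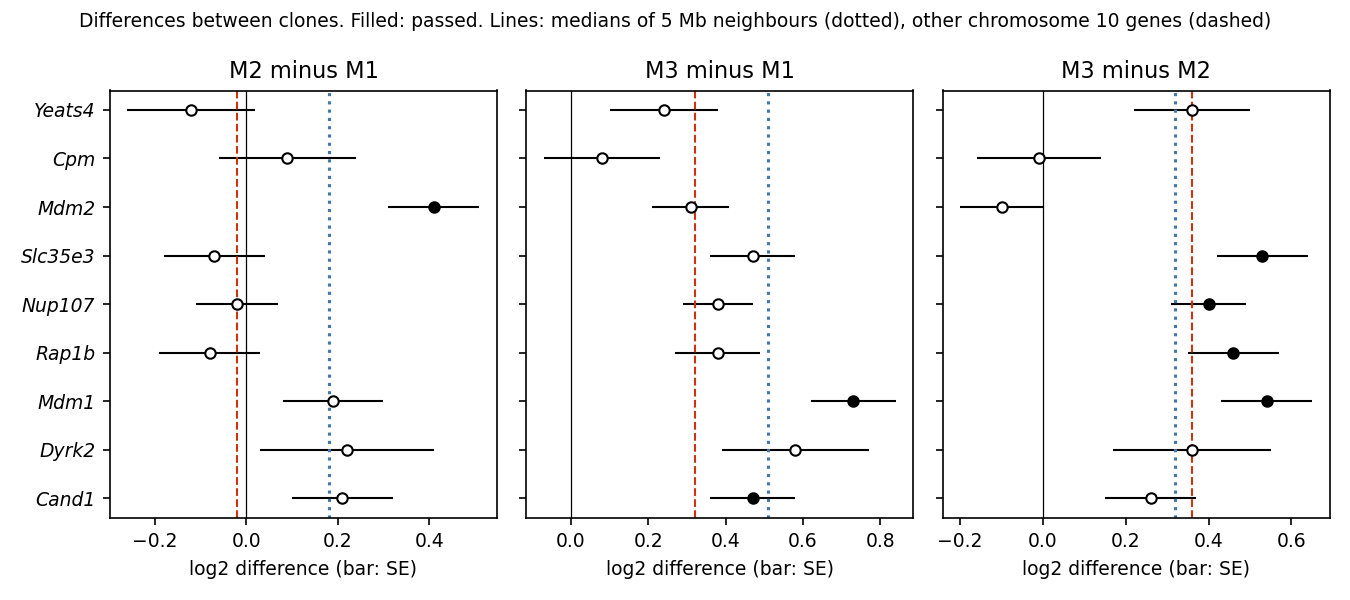
Log2 difference between clones for the 9 members with a level above 0, with bars of 1 standard error; filled points passed at an adjusted p below 0.05 (limma). The dashed line is the median of the other chromosome 10 genes and the dotted line that of the 31 neighbours: in M3 minus M1 these lie at 0.32 and 0.51, and Mdm1 lies beyond both at 0.73.

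In clone M3, the Tet2 hairpin was followed first. Mdm1 measured 29.3 and 29.8 CPM in shTet2 and 71.8 and 67.1 CPM in shControl. Both shTet2 libraries lay far below both shControl libraries. Mdm1 fell (log2 -1.19 ± 0.11, adjusted p = 0.000132, limma), and without the library labelled shControl replicate 1 the value was -1.08 (adjusted p = 1.98e-05). Slc35e3 measured 62.6 and 73.5 CPM in shTet2 and 87.5 and 97.0 CPM in shControl. The groups did not overlap, and Slc35e3 fell (log2 -0.41 ± 0.11, adjusted p = 0.0257) with all libraries and was -0.43 (adjusted p = 0.0119) without that one. Without shTet2 replicate 1, Slc35e3 gave -0.30 and did not pass (adjusted p = 0.182). These were 2 of 9 tested members, against 23.4% of all tested genes (12.9% lower), so the members' share was close to the background. Without the library labelled shControl replicate 1 the same 2 passed, against 32.9% of all tested genes. With only these groups in the fit neither passed (adjusted p = 0.0551 for Mdm1 and 0.353 for Slc35e3). The other 7 lay between -0.21 and 0.31, with Mdm2 at 206 and 175 CPM in shTet2 and 207 and 176 CPM in shControl. The log2 difference of Mdm2 was 0.03 with all libraries and 0.20 without the library labelled shControl replicate 1. Cell state markers moved with this hairpin: the epithelial list summed to 3310 to 3753 CPM in shTet2, against 958 CPM in the library labelled shControl replicate 1 and 2463 CPM in replicate 2. Of its 4 genes 3 were higher, and 4 without the first of those libraries. The mesenchymal list summed to 2901 to 3019 CPM in shTet2, against 4120 and 5925 CPM in the same shControl libraries. Of its 4 genes 1 was higher and 2 lower, and 3 lower without that library. Their part in the members' differences was not tested.

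With the Mbd3 hairpin the members moved in both directions. Cpm measured 2.38 and 2.45 CPM in shMbd3 and 0.366 and 0.192 CPM in shControl, from 57 and 55 reads in shMbd3 and 8 and 4 reads in shControl. The shMbd3 libraries stood clear of the shControl libraries, on few reads. By limma, Cpm rose by 1.87 ± 0.21 (adjusted p = 0.0003) on the log2 scale. Neither shControl library reached the filter of 0.5 CPM, so Cpm was tested only because groups with higher levels reached it. The call was kept with no filter on low values. The pseudocount of 0.5 CPM is larger than its shControl levels, and on the recovered reads edgeR gave 3.01 and DESeq2 3.04. Dyrk2 measured 24.2 and 25.9 CPM in shMbd3 and 9.20 and 16.6 CPM in shControl and rose by 0.92 ± 0.21 (adjusted p = 0.0107). Yeats4 measured 84.7 and 86.4 CPM in shMbd3 and 65.4 and 48.6 CPM in shControl and rose by 0.53 ± 0.16 (adjusted p = 0.0347). Nup107 measured 191 and 173 CPM in shMbd3 and 137 and 132 CPM in shControl and rose by 0.37 ± 0.11 (adjusted p = 0.0325), with 0.62 once each library's trend along GC content was removed. In all of these the shMbd3 libraries lay above both shControl libraries.

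Slc35e3 measured 51.0 and 49.0 CPM in shMbd3 and 87.5 and 97.0 CPM in shControl and fell (log2 -0.94 ± 0.11, adjusted p = 0.000365). Mdm1 measured 53.01 and 60.0 CPM in shMbd3 and 71.8 and 67.1 CPM in shControl and fell (log2 -0.36 ± 0.11, adjusted p = 0.0401). For both genes the shMbd3 libraries lay below both shControl libraries. In all, 4 of 9 members rose and 2 fell, and 6 of 9 passed, against 15.3% higher, 16.9% lower and 32.2% in either direction of all tested genes. Cpm, tested through its higher groups, is among the 4 and the 6. Mdm2 (186 and 170.2 CPM in shMbd3 and 207 and 176 CPM in shControl), Rap1b and Cand1 did not pass, at -0.20 to 0.03. The mesenchymal list summed to 2734 to 3033 CPM in shMbd3, against 4120 CPM in the library labelled shControl replicate 1 and 5925 CPM in replicate 2, with 1 of 4 genes higher and 3 lower, also without the first of these. The epithelial list summed to 2360 to 2425 CPM in shMbd3, against 958 CPM in that library and 2463 CPM in shControl replicate 2, so the shMbd3 sums lay above the one and below the other. Krt8 and Krt18 make up most of these sums. In that list, Cdh1 measured 170 and 202 CPM in shMbd3 and 16.3 and 25.7 CPM in shControl. Epcam, also in the list, measured 228 and 252 CPM in shMbd3 and 36.7 and 41.9 CPM in shControl. Of its 4 genes 2 were higher, and without that library 2 were higher and 1, Krt8, lower. The part of either list in the members' differences was not tested.

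Without the library labelled shControl replicate 1, Cpm was 2.06 (adjusted p = 0.000117), and Slc35e3 was -0.95 (adjusted p = 8.77e-05). Yeats4 was 0.81 (adjusted p = 0.000144), Nup107 was 0.46 (adjusted p = 0.00552), and Dyrk2 was 0.57 (adjusted p = 0.00605). The Mdm1 call was lost (-0.25, adjusted p = 0.0734), so 5 of 9 passed, against 34.4% of all tested genes. Without shControl replicate 2 instead, Yeats4 gave 0.26 (adjusted p = 0.034). The calls of Yeats4, Nup107 and Mdm1 were also lost on leaving out 9, 8 and 11 of the 12 libraries in turn, at adjusted p = 0.0526 to 0.209, and that of Dyrk2 without either shMbd3 library (0.0577 and 0.068). The Mdm1 call was also lost with no scaling factor and with no filter on low values (adjusted p = 0.0551 and 0.0589), and that of Yeats4 with no filter (0.0504). The calls of Cpm and Slc35e3 were kept without any 1 library. With only the groups compared in the fit, Cpm alone passed, against 3.01% of all genes tested there, and the adjusted p was 0.0715 for Slc35e3 and 0.21 to 0.33 for the others.

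CI994 changed the same 2 members under each hairpin, Cpm upward and Yeats4 downward. Cpm measured 1.56 and 1.07 CPM in shTet2 with CI994 and 0.567 and 0.349 CPM in shTet2, 5.63 and 5.41 CPM in shMbd3 with CI994 and 2.38 and 2.45 CPM in shMbd3, and 1.48 and 1.16 CPM in shControl with CI994 and 0.366 and 0.192 CPM in shControl. In every pair the CI994 libraries lay above the untreated ones. By limma, Cpm rose by 0.89 ± 0.21 (adjusted p = 0.0167) in shTet2, by 1.04 ± 0.21 (adjusted p = 0.014) in shMbd3 and by 1.21 ± 0.21 (adjusted p = 0.00438) in shControl, on the log2 scale. On the recovered reads edgeR gave 1.44 in shTet2 and 2.18 in shControl, and DESeq2 1.47 and 2.20, and a pseudocount of 0.1 gave 1.91 in shControl. With that pseudocount the call in shMbd3 was lost (1.15, adjusted p = 0.0535).

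Yeats4, the histone reader, measured 34.9 and 32.3 CPM in shTet2 with CI994 and 54.4 and 50.2 CPM in shTet2. It measured 51.5 and 50.1 CPM in shMbd3 with CI994 and 84.7 and 86.4 CPM in shMbd3. It measured 35.8 and 33.0 CPM in shControl with CI994 and 65.4 and 48.6 CPM in shControl. Every CI994 library lay below both untreated libraries of its hairpin. Yeats4 fell in shTet2 (log2 -0.70 ± 0.16, adjusted p = 0.016), in shMbd3 (log2 -0.75 ± 0.16, adjusted p = 0.0184) and in shControl (log2 -0.74 ± 0.16, adjusted p = 0.0116). Without the library labelled shControl replicate 1, the value in shControl was -0.47 (adjusted p = 0.00547), and that of Cpm was 1.40 (adjusted p = 0.0019). Both passed without it, against 29.7% of all tested genes. Of 9 tested members 2 passed in each comparison, against 24.3% of all tested genes in shTet2, 12.7% in shMbd3 and 33.6% in shControl (17.9% higher, 15.7% lower), so the members' share was not far from the background in any of them. Without CI994, Cpm lay below the filter of 0.5 CPM in both shControl libraries and in shTet2 replicate 2. Its tests in shControl and shTet2 thus rest on higher groups reaching the filter, though both calls were kept with no filter. With CI994 the leukocyte list summed to 16.0 to 16.6 CPM in shTet2, 6.73 to 7.21 CPM in shMbd3 and 6.93 to 6.99 CPM in shControl, against 2.74 to 3.50 CPM in shTet2, 0.960 to 1.65 CPM in shMbd3 and 1.33 to 2.25 CPM in shControl without it. That sum is nearly all Cd68, while Ptprc reached at most 0.378 CPM and Cd3e 0.0423 CPM in any library. The epithelial list summed to 3517 to 3521 CPM in shControl with CI994 against 958 CPM in the library labelled shControl replicate 1 and 2463 CPM in replicate 2. Of its genes 4 of 4 were higher, also without that library, while 1 of 4 was higher in shTet2 and 0 of 4 in shMbd3 (2 of 4 in each without it). The part of these markers in the members' differences was not tested.

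The calls of Yeats4 in shTet2 and in shMbd3, and of Cpm in shMbd3, were lost when any 1 of the 4 libraries compared was left out, at adjusted p = 0.0667 to 0.115. That of Yeats4 in shControl was lost without either CI994 library (0.0552 and 0.0777). With only the groups compared in the fit neither Yeats4 nor Cpm passed in shControl (0.227 and 0.115). The call of Cpm in shTet2 was lost without shTet2 replicate 2 or shTet2 with CI994 replicate 1 (0.115 and 0.136). The remaining 7 members lay between -0.49 and 0.22 in shTet2, between -0.13 and 0.16 in shMbd3 and between -0.39 and 0.30 in shControl. In shTet2, Rap1b measured 204 and 221 CPM in shTet2 with CI994 and 275 and 294 CPM in shTet2, and Mdm2 measured 169 and 159 CPM in shTet2 with CI994 and 206 and 175 CPM in shTet2. Neither passed with all libraries (adjusted p = 0.0657 and 0.158). With the library labelled shControl replicate 1 left out, the standard error of Rap1b there was 0.07 in place of 0.17, and 5 of 9 passed: Rap1b was -0.49 (adjusted p = 0.000142), Mdm2 was -0.28 (adjusted p = 0.0181), and Cand1 was -0.20 (adjusted p = 0.0336), beside Yeats4 and Cpm. Over all tested genes 57.7% passed there without that library, so the members' share, too, was close to the background.

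With CI994 in both groups, 1 member passed for shTet2 and 3 for shMbd3. Mdm1 measured 36.9 and 33.5 CPM in shTet2 with CI994 and 66.6 and 69.1 CPM in shControl with CI994 and fell (log2 -0.95 ± 0.11, adjusted p = 0.00055). It was the 1 of 9 members that passed, against 16% of all tested genes (9.28% lower), and the others lay between -0.33 and 0.10. Against shControl with CI994, Cpm in shMbd3 with CI994 rose by 1.70 ± 0.21 (adjusted p = 0.000559). The levels were 5.63 and 5.41 CPM in shMbd3 with CI994 and 1.48 and 1.16 CPM in shControl with CI994. Dyrk2 measured 24.7 and 28.3 CPM in shMbd3 with CI994 and 14.7 and 16.8 CPM in shControl with CI994 and rose by 0.70 ± 0.21 (adjusted p = 0.0446). Slc35e3 measured 54.5 and 58.2 CPM in shMbd3 with CI994 and 76.9 and 86.0 CPM in shControl with CI994 and fell (log2 -0.56 ± 0.11, adjusted p = 0.00667). In all 3 the groups did not overlap, and nothing is read from that. They were 3 of 9 members, against 19.1% of all tested genes (8.11% higher, 11% lower), and the others lay between -0.19 and 0.52. The Dyrk2 call was lost without any 1 of 10 of the 12 libraries (adjusted p = 0.0719 to 0.234), the library labelled shControl replicate 1 and shControl replicate 2 excepted, and also with no scaling factor or no filter (0.0562 and 0.0572). That of Slc35e3 was lost without shControl with CI994 replicate 2 or shMbd3 with CI994 replicate 1 (0.0732 and 0.0626). Without the library labelled shControl replicate 1, 3 of 9 members passed for shTet2, against 40.7% of all tested genes, and 4 of 9 for shMbd3, against 44.2%, so both shares were close to the background or below it. The added calls were Nup107 (-0.33, adjusted p = 0.00787) and Rap1b (-0.31, adjusted p = 0.00377), lower in shTet2, and Yeats4 (0.52, adjusted p = 0.000453), higher in shMbd3.

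The change in a hairpin's difference with CI994 was tested directly. By limma 0 of 9 members passed for shTet2 and 0 of 9 for shMbd3, against 0.687% and 0.0781% of all tested genes. At an unadjusted p below 0.05 the counts were 0 and 1, that 1 being Slc35e3 (log2 0.38, adjusted p = 0.368), and edgeR and DESeq2 gave 0 members in both. Without the library labelled shControl replicate 1, 1 of 9 passed for shTet2, Rap1b (-0.40, adjusted p = 0.047), against 6.36% of all tested genes, and 0 of 9 for shMbd3, against 0.713%. Since these tests missed the threshold, the calls that appear with CI994 absent and not with CI994 present are not shown to differ.

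Mdm2 itself varied little over the 6 M3 groups. Its group means were 164 ± 7.17 CPM in shTet2 with CI994, 173 ± 2.13 CPM in shMbd3 with CI994 and 165 ± 7.89 CPM in shControl with CI994. They were 191 ± 22.0 CPM in shTet2, 178 ± 11.5 CPM in shMbd3 and 191 ± 22.0 CPM in shControl (SD, n = 2 each). From the lowest, the order was shTet2 with CI994, shControl with CI994, shMbd3 with CI994, shMbd3, shTet2 and shControl, and no neighbours in that order differed beyond their spread. Mdm2 passed in none of the 7 comparisons of 2 groups with all libraries, at log2 differences from -0.28 to 0.03. Over the 9 tested members the median in these comparisons lay between -0.18 and 0.14, against -0.00 to 0.03 over all tested genes.

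**Figure D5:**
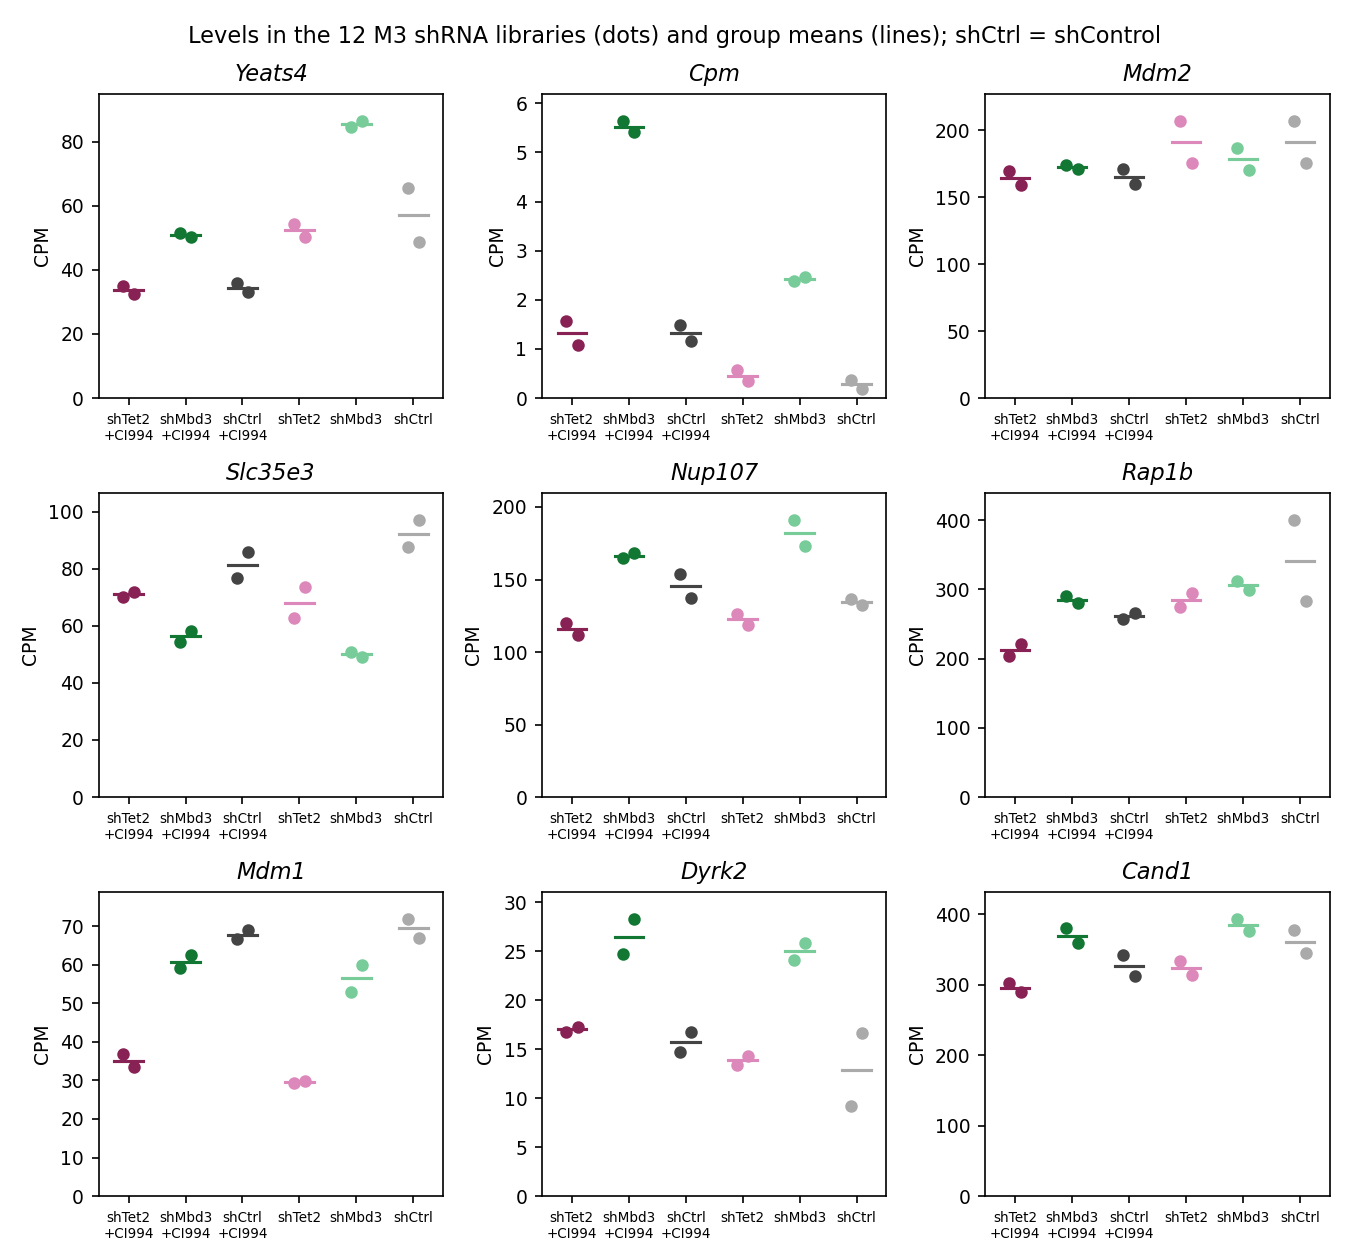
CPM of the 9 members with reads in each of the 12 M3 libraries, 1 panel per gene; dots are libraries, lines are group means of 2, and each axis starts at 0. Mdm1 is low in both shTet2 groups (29.3 to 36.9 CPM), Cpm is highest in shMbd3 with CI994 (5.63 and 5.41 CPM), and Yeats4 is lower with CI994 under every hairpin.

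Genes that work with the members were counted from lists. These lists, like the members, were drawn up with earlier results known, and no set test was made. In clones minus Py2T LT, 32.6% of all tested genes were higher and 32.4% lower by limma. The errors of this comparison come from the spread between libraries of the same group, so the spread between clones does not enter. Its adjusted p values, here and in the next paragraphs, thus speak for these single clones alone. The SD of a clone mean pools libraries of the same clone with those of other clones. Of 20 tested p53 regulators, 2 were higher, 6 lower and 12 did not pass, with a median log2 difference of -0.08 against 0.00 over all tested genes. Cdkn2a, which encodes the Arf inhibitor of Mdm2, averaged 0.0170 ± 0.0263 RPKM in the clones (SD, n = 6) and 59.5 ± 8.51 RPKM in Py2T LT (SD, n = 2). With at most 0.0533 RPKM in any clone library, it reached the filter through Py2T LT alone. It is counted among the 6 lower, but it could only be lower, so nothing is read from its test. The size of its log2 difference, -6.87, depends on the pseudocount. Usp7, which deubiquitinates Mdm2 and p53, differed by -0.44 ± 0.09 (SE, adjusted p = 0.0024), and the checkpoint kinase gene Atr rose by 0.81 ± 0.14 (SE, adjusted p = 0.000922). Trp53, which encodes p53, averaged 105 ± 23.4 RPKM in the clones and 92.7 ± 0.233 RPKM in Py2T LT and did not pass (adjusted p = 0.118). Mdm4, the partner of Mdm2, averaged 13.0 ± 2.85 RPKM in the clones and 14.3 ± 0.573 RPKM in Py2T LT and did not pass (adjusted p = 0.308).

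Of 29 tested p53 targets, 12 were higher in the clones, 10 lower and 7 did not pass, with a median of 0.19. Perp, a cell adhesion gene, averaged 139.8 ± 13.2 RPKM in the clones and 36.0 ± 0.566 RPKM in Py2T LT and rose by 1.92 ± 0.08 (SE, adjusted p = 1.65e-07). Ccng1, the cyclin G1 gene, averaged 193 ± 74.3 RPKM in the clones and 71.4 ± 0.120 RPKM in Py2T LT and rose by 1.33 ± 0.08 (adjusted p = 1.26e-06). Its clone libraries ran from 122.5 to 299.9 RPKM, and Ccng1 also passed between M2 and M1 and between M3 and M2. Gadd45a, a stress response gene, averaged 4.42 ± 1.06 RPKM in the clones and 43.9 ± 3.07 RPKM in Py2T LT and fell by 3.22 on the log2 scale (adjusted p = 2.74e-07). Cdkn1a, the p21 gene, averaged 86.2 ± 15.0 RPKM in the clones and 74.0 ± 11.6 RPKM in Py2T LT and did not pass (adjusted p = 0.122). Taken clone by clone, Cdkn1a passed in M1 alone, where it was higher. Targets thus passed in both directions.

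Of the 9 other tested subunits of the Nup107 subcomplex, 0 were higher, 7 lower and 2 did not pass, with a median of -0.32. Sec13, shared with the COPII coat, averaged 79.8 ± 6.95 RPKM in the clones and 158 ± 5.94 RPKM in Py2T LT and fell (adjusted p = 6.08e-06), and Nup98 differed by -0.99 ± 0.12 (adjusted p = 0.000102). The clone mean of Nup107 itself was 5.16% of that in Py2T LT. Of 17 tested subunits of the TIP60 and SRCAP complexes, 3 were higher and 6 lower (median -0.18), and of 13 cullins and cullin regulators that work with Cand1, 2 were higher and 6 lower (median -0.14). Of 17 relatives and regulators of Rap1b, 4 were higher and 8 lower (median -0.11), among them Apbb1ip, a Rap1 effector, at 0.414 ± 0.234 RPKM in the clones and 19.6 ± 0.0424 RPKM in Py2T LT. Of 5 kinases related to Dyrk2, 2 were higher and 3 lower (median -0.24). Apbb1ip, Sipa1l2 and the kinase gene Dyrk1b, all counted as lower, reached at most 0.755, 0.413 and 0.460 RPKM in any clone library. They passed the filter through Py2T LT alone, so they could only be lower.

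Under CI994, the lists were counted first in shTet2 and in shMbd3, where no shControl library enters the difference, though all 12 libraries set the error. Without the library labelled shControl replicate 1 the medians were the same, but 57.7% of all tested genes passed in shTet2 and 42% in shMbd3, in place of 24.3% and 12.7%. The TIP60 and SRCAP subunits that work with Yeats4 had 0 of 17 higher and 8 of 17 lower in each, with medians of -0.37 in shTet2 and -0.51 in shMbd3. Without that library 2 were higher and 10 lower in shTet2, and 1 was higher and 11 lower in shMbd3. Over all tested genes 12.6% rose and 11.7% fell in shTet2, 7.58% rose and 5.11% fell in shMbd3, and the medians were 0.01 and 0.00. Epc1, a scaffold of TIP60, differed by -1.01 ± 0.10 in shTet2 (adjusted p = 0.000341) and by -1.16 ± 0.10 in shMbd3 (adjusted p = 0.000374). Ruvbl1, an ATPase of both complexes, differed by -0.73 ± 0.11 in shTet2 (adjusted p = 0.00237) and by -0.72 ± 0.11 in shMbd3 (adjusted p = 0.00427). Of 29 p53 targets, 9 rose and 0 fell in shTet2 (median 0.14), and 5 rose and 0 fell in shMbd3 (median 0.17). Without that library 12 rose and 2 fell in shTet2, and 12 rose and 3 fell in shMbd3. Dram1, an autophagy gene, rose by 2.03 ± 0.21 in shTet2 (adjusted p = 0.000393) and by 1.53 ± 0.21 in shMbd3 (adjusted p = 0.0024). Of 19 tested p53 regulators 3 fell in each, Chek1, Chek2 and Ep300, and 0 rose. Without that library 2 rose and 12 fell in shTet2, and 1 rose and 8 fell in shMbd3. Of the 9 Nup107 partners, 3 fell in shTet2 and 2 in shMbd3 (6 and 7 without that library). Of the 13 Cand1 partners, 1 rose and 3 fell in shTet2 and 2 fell in shMbd3, and without that library 1 rose and 10 fell in shTet2 and 1 rose and 8 fell in shMbd3. Of 18 Rap1b relatives and regulators, 1 rose and 2 fell in shTet2 and 1 rose in shMbd3, and without that library 6 rose and 5 fell in shTet2 and 6 rose and 2 fell in shMbd3. Of 4 Dyrk2 relatives, 2 fell in shTet2 and 1 in shMbd3, with or without it, and 2 rose in shMbd3 without it. In shControl, 1 of 17 TIP60 and SRCAP subunits was higher with CI994 and 8 were lower, with a median of -0.24, or -0.40 without that library. Of the 29 p53 targets 9 were higher there and 1 lower, with a median of 0.34, or 0.21 without it. Over all tested genes 17.9% were higher and 15.7% lower in shControl with CI994, or 33.6% in either direction.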

How the data were processed

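RNA from 20 libraries was analysed, 8 as RPKM and 12 as CPM, in 10 groups of 2. The deposited RPKM and CPM values were made by the authors from total RNA prepared with a stranded kit, per the labels' protocols, and aligned with STAR to mm10, per the submitters' processing notes; the counting tool is not given in the sources used here. Where 7 columns were repeated between files, 0 differed. In every library 100% of CPM values came out as whole reads within 0.01 reads, so reads were recovered. RPKM and CPM tables were tested separately. Values were divided by TMM factors (edgeR 4.0.16), genes were kept that reached 1 RPKM (11717) or 0.5 CPM (12808) in at least 2 libraries, and log2(value + 0.5) was fitted with limma 3.58.1 (trend, robust; R 4.3.3) with group as the only term, all libraries of a table in 1 fit. Benjamini-Hochberg adjustment ran over all tested genes, with a threshold of 0.05. The fit was run on simulated CPM libraries with known changes in shTet2 and the same spread for every gene and library. That simulation covers neither the RPKM libraries nor a library that stands apart, such as the one labelled shControl replicate 1. Fold changes on this scale understate the change of low genes.

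The members, gene lists and tests were chosen with earlier results of these data known. Members could be named in any comparison; of other genes, the tested neighbours next to the members, those between them, those past a log2 difference of 2, and up to 3 rises and 3 falls per list were named, beside the markers. Genes carry NCBI gene IDs; 19262 and 24374 IDs (99.7% of each table) matched a symbol. GC content was available for 94.4% and 95.6% of tested genes. Promoters are from RefSeq on GRCm38.p6. Alternatives were RLE or no scaling, no filter, pseudocounts of 0.1 and 1, a replicate block, removal of each library's GC trend (lowess span 0.3), both together, only the groups compared, leaving out each library, and edgeR's quasi-likelihood test and DESeq2 1.42.0 on the recovered reads. Replicates came from 2 experiments; with 2 per group, errors are imprecise. Floors of 3 reads cover counting error only. Python 3.11.15, pandas 2.3.3, scipy 1.17.1 and matplotlib 3.10.9 were used.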

Additional observations from a re-analysis of the deposited data

How the results depend on the processing

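Of the recomputed values of single genes, 642 kept their call and direction, 140 lost the call, 4 moved by more than the spread between replicates and 0 reversed. Counts of passing members moved by more than 1.5 times in these cases. With only the groups compared in the fit, the count was 0 in M2 minus M1 (1 with all libraries), 1 in M3 minus M1 (2), 7 in M3 minus M2 (4), 2 among the clones (6), 0 in shTet2 minus shControl (2), 1 in shMbd3 minus shControl (6), 0 for CI994 in shControl (2), 5 for CI994 in shTet2 (2) and 3 in shTet2 minus shControl with CI994 (1). The share of all genes called moved the same way in each: in that fit it was 12.1%, 1.8%, 31.9%, 19.9%, 2.72%, 3.01%, 0.0976%, 59.7% and 42%, in the same order, against 22.9%, 4.92%, 20.2%, 25.7%, 23.4%, 32.2%, 33.6%, 24.3% and 16% with all libraries. In M3 minus M1 the count was 1 with no scaling, no filter or the GC trend removed, and with no filter it was 3 among the clones. It was 1 for CI994 in shMbd3 with a pseudocount of 0.1, 2 in shTet2 minus shControl with CI994 with no scaling, and 5 in shMbd3 minus shControl with CI994 with the GC trend removed. The cause of these changes was not tested. Over all genes, edgeR on the recovered reads called 1558 to 4073 in the 7 comparisons of 2 groups, against 1626 to 4302 by limma. For the interactions edgeR called 38 (shTet2) and 0 (shMbd3) genes, DESeq2 267 and 119, and limma 88 and 10.

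Samples of the same replicate number deviated together with correlations of -0.12 to 0.13 in the RPKM libraries and 0.096 to 0.52 in the CPM libraries, and 14 of 15 group pairs of the CPM libraries were above 0.1. The labels do not say that a number marks an experiment, and 1 of the CPM pairs lay below 0.1, so the numbers were not taken as pairs. With the replicate block the count was 1 in M3 minus M1 and 2 in shTet2 minus shControl with CI994, where 2660 genes passed over all, against 2045 without the block. Over all genes the block gave 1.28 to 1.48 times as many calls in the 7 comparisons of CPM groups. With the replicate block and the GC trend removed it was 1 in M3 minus M1, 4 for CI994 in shControl and 5 in shMbd3 minus shControl with CI994.

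On leaving out 1 library at a time, the members at or below -2 in clones minus Py2T LT numbered 6 to 8, since Cpm and 4933411E08Rik drop under the filter without a Py2T LT library. The count of passing members ranged from 0 to 4 in M2 minus M1, 0 to 5 in M3 minus M1, 0 to 7 in M3 minus M2 and 1 to 8 among the clones. It ranged from 1 to 6 in shTet2 minus shControl, 2 to 8 in shMbd3 minus shControl, 1 to 6 for CI994 in shControl, 0 to 5 in shTet2 and 0 to 2 in shMbd3, and with CI994 from 1 to 3 in shTet2 minus shControl and 1 to 4 in shMbd3 minus shControl. For the interactions it was 0 to 1 for shTet2 and 0 to 3 for shMbd3. Where this leaves 1 library in a group, that library is assumed to vary like the other groups. In M2 minus M1, M3 minus M1 and among the clones, calls over all genes were most numerous without M1 replicate 2. Member counts and kept calls without that library stand against this raised background. With 2 libraries per group, calls of members with few reads, such as Cpm, are limited by counting.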

Other observations

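Along the genome, consecutive tested genes at or below a log2 difference of -2 (clones minus Py2T LT) were counted as a run. The run from Cpm to Dyrk2 held 8 genes, with a median of -3.96, and was the longest in either direction. Of 9 runs of at least 3 genes lower in the clones it was the 1 with at least 4 genes. The others held 3 genes each, among them the run from Cdkn2a to Dmrta1 on chromosome 4 (89274473 to 89694766), with a median of -6.53, and the run from Olfm2 to Rdh8 on chromosome 9, with a median of -5.38. Of 3 runs higher in the clones, those from Ifi204 to Ifi203 (interferon-induced genes on chromosome 1, median 2.76) and from Gimap9 to Gpnmb (chromosome 6, median 4.14) held 4 genes. The genes from Cpm to Dyrk2 are members picked on this same contrast, so the length of their run describes that choice and supports nothing. The length of a run also depends on which genes passed the filter. In this one Cpm and 4933411E08Rik passed it through Py2T LT alone, with at most 0.0933 RPKM in any clone library. The counts carry no test.

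Over the 12 CPM libraries, Pearson's r with Mdm2 was highest for Hikeshi (0.950), Fmn1 (0.942), Cnot4 (0.939), Dpp8 (0.923) and Dmtf1 (0.915), among 10219 genes with a mean of at least 5 CPM. Of the members, Rap1b reached 0.650, at rank 1453, and Yeats4 0.565. Cand1 reached 0.486, while Nup107 at 0.073, Slc35e3 at -0.034, Mdm1 at -0.079 and Dyrk2 at -0.471 did not follow Mdm2. These are descriptions without a test: the libraries share hairpins, drug and depth, and the library labelled shControl replicate 1 is among them.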
